A study of Mus musculus with 24 samples.

Results

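The 10 genes described here, Atf4, Ddit3, Trib3, Asns, Chac1, Hspa5, Xbp1, Dnajb9, Herpud1 and Atf6, belong to the unfolded protein response and the integrated stress response. They were chosen with earlier results of these data known and taken by name from the 55357 genes of the count table. All 10 passed the filter on low counts that left 14985 genes for testing. The libraries are RNA-seq of bone marrow-derived macrophages, which are bone marrow cells grown into macrophages with M-CSF-containing L929 supernatant. The marrow came from wild-type C57BL/6J mice of 8 to 12 weeks, and no group carries a genetic change. The 8 groups combine 4 treatments with 2 times of treatment, 4 h and 24 h. The treatments are untreated cells, 100 nM dexamethasone (a synthetic glucocorticoid), 100 ng LPS (a bacterial cell wall component that activates Toll-like receptor 4; the volume it was given in is not stated) and LPS plus dexamethasone. Each group has 3 libraries. The labels do not say whether these come from separate mice or cultures, and the p-values therefore measure only the spread between these libraries, which may be technical. The series asks how the anti-inflammatory action of glucocorticoids in LPS-treated macrophages depends on time.

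The unfolded protein response is started by unfolded proteins in the endoplasmic reticulum (ER) through the sensors IRE1, PERK and ATF6. ATF6 and the spliced form of XBP1 switch on genes for ER chaperones and for ER-associated degradation, the route by which misfolded proteins leave the ER for the proteasome. PERK is also a kinase of the translation factor eIF2, and with GCN2, PKR and HRI it feeds the integrated stress response, in which general translation falls while the ATF4 protein is made. ATF4 then drives genes for amino acid supply, the factor CHOP (gene Ddit3) and feedback genes such as Trib3. In macrophages, Toll-like receptor signalling is known to engage parts of these pathways while the cell's secretory load rises. ATF4 is controlled mainly by translation and XBP1 by splicing, so mRNA counts per gene do not report the activity of either protein, and these counts do not separate spliced from unspliced Xbp1 mRNA.

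The promoters of 4 target genes are shown because they hold the letters of elements at which the factors of this response are known to act. RefSeq windows (build GRCm38.p6) were listed for 9 of the 10 genes, and the 250 bases before the transcription start were searched on both strands. The ER stress response element (ERSE) joins the letters CCAAT and CCACG across a fixed gap and is the site at which ATF6 and NF-Y act on chaperone genes. It was found in the window of Hspa5 and in 0.113% of the 32851 windows of all genes. The related element ERSE-II, in which ATTGG and CCACG stand 1 base apart, was found in 0.0304% of windows and was present in Herpud1. The letters TGATGNAA, a common form of the ATF4 element, were found in Asns, Chac1 and Herpud1 and in 3.45% of windows; this spelling was chosen after the promoters had been seen. Neither the UPR element TGACGTGG (0.563% of windows) nor the palindromic glucocorticoid receptor element (GRE; 0.387% of windows) was present in these windows of the 9 genes. A match is a description of letters, not a shown binding site. The stretches around the matches, each 5′ to 3′ on the strand of its gene with the matched letters in capitals, were as follows. The Hspa5 stretch has its match at bases -65 to -47 from the start and lies at chr2:34771980-34772059 on the plus strand.
Hspa5: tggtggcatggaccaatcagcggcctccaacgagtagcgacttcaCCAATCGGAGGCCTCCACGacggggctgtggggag
The Herpud1 stretch lies at chr8:94386299-94386398 on the plus strand. It holds the ATF4 element letters read on the minus strand at -112 to -105 and the ER stress element at -52 to -42.
Herpud1: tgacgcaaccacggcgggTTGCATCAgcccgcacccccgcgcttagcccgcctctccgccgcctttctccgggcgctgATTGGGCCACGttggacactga
The Chac1 stretch has the element, read on the minus strand, at -193 to -186 and lies at chr2:119351027-119351086 on the plus strand.
Chac1: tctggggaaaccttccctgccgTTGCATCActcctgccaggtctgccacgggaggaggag
The Asns stretch has the element at -23 to -16 and lies at chr6:7693210-7693289 on the minus strand.
Asns: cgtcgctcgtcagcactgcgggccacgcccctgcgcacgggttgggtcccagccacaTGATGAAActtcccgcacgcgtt

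Library totals ran from 18326206 to 27908164 counts. Levels are CPM, the usual depth-normalised read count, here over the TMM-scaled library size. They are given for replicates 1, 2 and 3 in that order or as mean ± SD with n = 3. Differences were tested in edgeR by quasi-likelihood, p-values were adjusted by Benjamini-Hochberg across all 14985 genes, and a call needed an adjusted p below 0.05. Fold changes are log2 values ± an approximate standard error. The TMM factors ran from 0.679 to 1.184 and matter for LPS: scaling by library size alone shifted log2 fold changes by -0.77 for LPS at 4 h, by -0.20 for LPS at 24 h and by 0.22 for dexamethasone under LPS at 4 h. Between the times it shifted the LPS effect by 0.57 and the dexamethasone effect under LPS by -0.19, and it shifted the interaction of both agents at 4 h by 0.23. Changes at these contrasts are therefore relative to the bulk of the genes. The summed level of 8 macrophage markers was 16900 to 52300 CPM per library. The 6 marker lists of other cell types stayed at or below 143 CPM summed, and the erythroid list at or below 0.338 CPM. In bulk RNA, fewer cells of a type, less RNA per cell and a change of the marker genes within macrophages cannot be told apart.

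**Figure D1:**
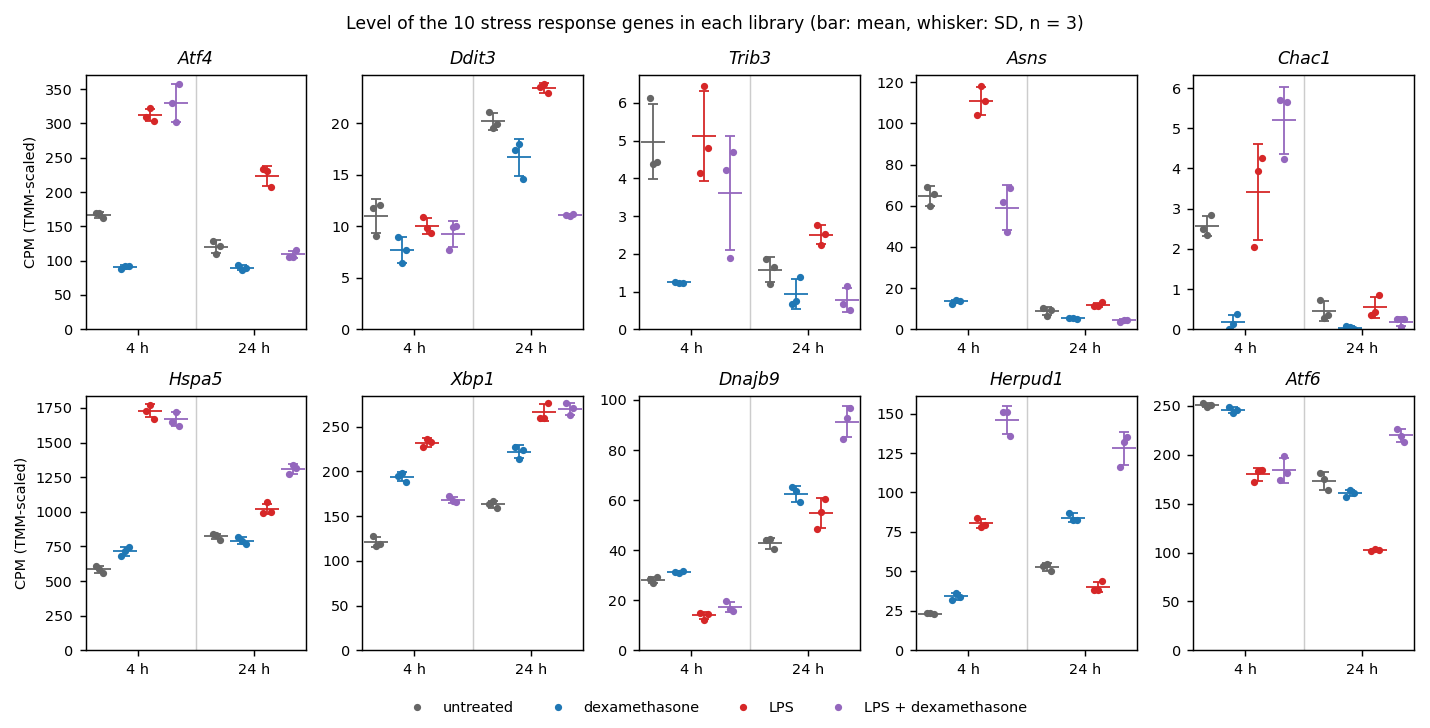
Level of each gene in CPM (vertical axis, from 0) in the 24 libraries by treatment and time; points are libraries, bars the mean and whiskers the SD of 3 libraries. Asns, Trib3 and Chac1 have higher means at 4 h than at 24 h in each treatment, while Dnajb9 and Ddit3 reach their highest means at 24 h.

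Per kilobase of exon the 10 genes differ widely in level. Hspa5 reached 408 ± 11.4 RPKM (CPM divided by exon length in kilobases) with LPS at 4 h, and its lowest group mean was 138 ± 5.93 RPKM in untreated cells at 4 h. Atf4 had group means of 38.1 to 140 RPKM. Trib3 had means of 0.367 to 2.41 RPKM and Chac1 of 0.026 to 3.18 RPKM. The median coefficient of variation over the 8 groups was lowest for Xbp1 (2.51%), Atf6 (2.54%) and Hspa5 (3.1%) and highest for Trib3 (22.1%) and Chac1 (50.6%).

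The main pattern concerns dexamethasone added to LPS. At 4 h it lowered Asns and Xbp1 and raised Dnajb9 and Herpud1, 4 calls among the 10 genes where 49.3% of all genes were called, and with scaling by library size alone 6 of the 10 rose. At 24 h it lowered Atf4, Ddit3, Trib3 and Asns and raised Hspa5, Dnajb9, Herpud1 and Atf6, where 43.7% of all genes were called. The test of the difference between the times was passed by all 10 genes, 5 in each direction. Over all genes 38.8% were called, 19% higher and 19.8% lower. The 10 genes were chosen with earlier results of these data known, so they are not an unselected set to hold against that share. The change from 4 h to 24 h in the dexamethasone effect was negative for Atf4, Ddit3, Trib3, Asns and Chac1 and positive for Hspa5, Xbp1, Dnajb9, Herpud1 and Atf6. Scaling by library size alone shifted this comparison by -0.19, which ended the call of Dnajb9 (0.23, adjusted p = 0.15) and left 0.22 in place of 0.41 for Hspa5 and 0.30 in place of 0.49 for Xbp1. These values are of the 10 genes and do not stand for the wider lists given further on. In the same test, 8 of 26 other ATF4 targets were called higher and 9 lower. Of 16 genes for sensors and eIF2 machinery, 2 were higher and 11 lower (median -0.37). Of the 13 genes of the tRNA synthetase list, 3 were higher and 0 lower. Of 20 other ER chaperones and folding enzymes, 4 were higher and 2 lower. Of 17 other genes of ER-associated degradation, 6 were higher and 1 lower. Of 27 genes of translocation and early secretion, 20 were higher and 1 lower. Without 1 of 4 libraries (LPS at 24 h replicate 3, LPS plus dexamethasone at 4 h replicate 1 or 3, or at 24 h replicate 1) the count of negative calls fell to 3. Trib3 also lost its call without LPS replicate 1 at 4 h or at 24 h, or LPS plus dexamethasone at 24 h replicate 3. Chac1 also lost its call without LPS plus dexamethasone at 24 h replicate 2.

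**Figure D2:**
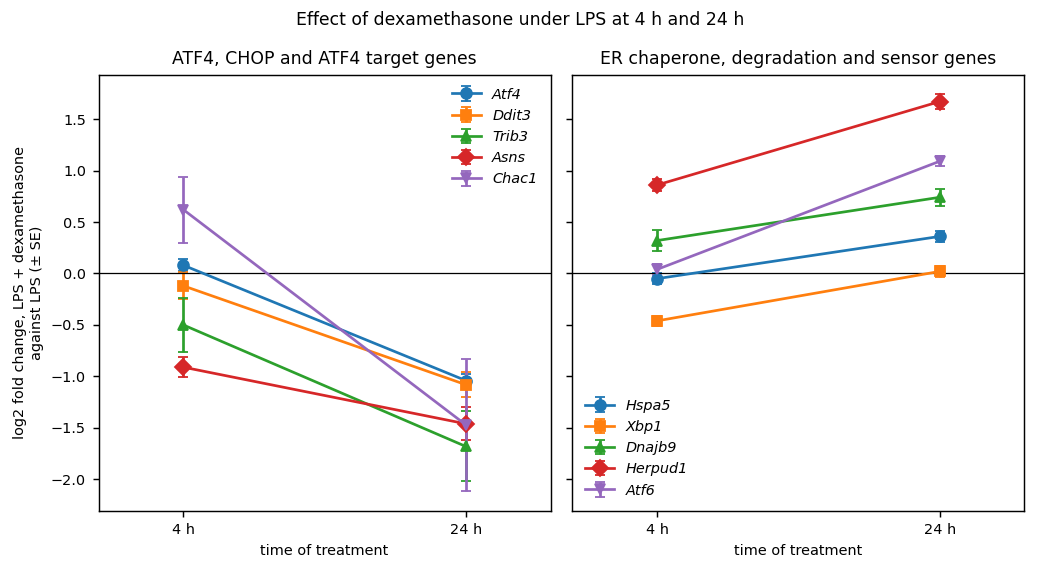
Log2 fold change of LPS plus dexamethasone against LPS (vertical axis) at 4 h and 24 h for the 5 genes of the ATF4 branch (left) and the 5 ER genes (right); whiskers are the standard error. Every line on the left falls, Atf4 from 0.08 to -1.04, and every line on the right rises, Herpud1 from 0.86 to 1.67.

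Atf4 encodes the transcription factor at the centre of the integrated stress response (chromosome 15, 80139385 to 80141742 on the plus strand; gene positions are given as in the count table, whose annotation is of GRCm39). At 4 h, Atf4 was at 170, 169 and 162 CPM in untreated libraries and at 88.2, 92.0 and 92.3 CPM with dexamethasone. With LPS for 4 h it was at 309, 322 and 304 CPM, and with LPS plus dexamethasone at 330, 302 and 357 CPM. The libraries of the last 2 groups overlapped, and both lay above all untreated and dexamethasone libraries. At 24 h, Atf4 was at 129, 110 and 121 CPM in untreated libraries and at 93.9, 87.0 and 88.9 CPM with dexamethasone. LPS for 24 h gave 234, 230 and 207 CPM, and LPS plus dexamethasone 106, 105 and 115 CPM, which overlapped with the untreated range. LPS thus raised Atf4 by 0.90 ± 0.06 at 4 h (adjusted p = 4e-16) and by 0.90 ± 0.06 at 24 h (adjusted p = 1e-15). Dexamethasone alone lowered it, with differences of -0.88 ± 0.06 at 4 h (adjusted p = 8.9e-15) and -0.41 ± 0.06 at 24 h (adjusted p = 5.2e-07). Under LPS the dexamethasone difference was 0.08 ± 0.06 at 4 h (adjusted p = 0.26) and -1.04 ± 0.06 at 24 h (adjusted p = 7.7e-17). The change between the times was -1.12 ± 0.08 (adjusted p = 2.1e-13). The groups in order of mean ran from LPS plus dexamethasone at 4 h (330 ± 27.6 CPM) to dexamethasone at 24 h (89.9 ± 3.58 CPM), a 3.67-fold span.

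Ddit3 encodes CHOP, a factor linked to cell death under lasting ER stress (chromosome 10, 127126643 to 127132157, plus strand). The symbol is carried by 2 entries of the count table, and the values here are of that with more counts. Of its 1713 exon bases 186 (10.9%) overlap other genes. These are Gm4189 and Mars on the opposite strand and the other entry named Ddit3 on the plus strand. Read pairs that overlap several genes were not counted and strand was not used, so its level is uncertain to that extent. At 4 h, Ddit3 was at 11.8, 9.04 and 12.1 CPM untreated and at 8.93, 6.47 and 7.74 CPM with dexamethasone. LPS gave 10.9, 9.82 and 9.31 CPM and LPS plus dexamethasone 7.74, 9.93 and 10.0 CPM at 4 h. All 4 groups lay close together, with dexamethasone lowest. At 24 h, Ddit3 was at 21.1, 19.5 and 19.9 CPM untreated and at 17.4, 18 and 14.6 CPM with dexamethasone. LPS gave 23.5, 23.8 and 22.9 CPM and LPS plus dexamethasone 11.1, 11 and 11.2 CPM, so that the combined treatment lay below every other library of that time. The LPS difference was -0.14 ± 0.12 at 4 h (adjusted p = 0.33) and 0.21 ± 0.11 at 24 h (adjusted p = 0.087); scaled by library size alone, the 4 h value was -0.91 (adjusted p = 2e-08). Dexamethasone alone lowered Ddit3 with a difference of -0.52 ± 0.12 at 4 h (adjusted p = 0.00078). The 24 h difference was -0.27 ± 0.11 (adjusted p = 0.039), a call lost without untreated replicate 1 (0.12) or 3 (0.066) or dexamethasone replicate 3 (0.23), and with scaling by DESeq2 size factors (0.052) or library size alone (0.072). Under LPS the dexamethasone difference was -0.12 ± 0.13 at 4 h (adjusted p = 0.46) and -1.08 ± 0.12 at 24 h (adjusted p = 7.5e-10), and the change between the times was -0.95 ± 0.18 (adjusted p = 3.2e-05).

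Trib3 encodes a pseudokinase induced by ATF4 and CHOP that dampens the response (chromosome 2, 152179342 to 152185952, minus strand). At 4 h, Trib3 was at 6.12, 4.38 and 4.42 CPM untreated and at 1.25, 1.23 and 1.23 CPM with dexamethasone. LPS gave 4.13, 6.45 and 4.81 CPM and LPS plus dexamethasone 4.21, 1.88 and 4.71 CPM. Dexamethasone alone stood apart at 4 h, and the other 3 groups overlapped. At 24 h, Trib3 was at 1.86, 1.21 and 1.66 CPM untreated and at 0.663, 0.758 and 1.39 CPM with dexamethasone. LPS gave 2.75, 2.24 and 2.53 CPM and LPS plus dexamethasone 0.681, 1.14 and 0.519 CPM. Dexamethasone lowered Trib3 with a difference of -2.01 ± 0.28 at 4 h (adjusted p = 2.4e-07). At 24 h the difference was -0.74 ± 0.34 (adjusted p = 0.069) and passed the threshold without untreated replicate 2 (0.041) or dexamethasone replicate 3 (0.017). The LPS difference was 0.03 ± 0.25 at 4 h (adjusted p = 0.92). At 24 h it was 0.68 ± 0.30 (adjusted p = 0.046), a call that held only without untreated replicate 1 among the 6 libraries left out in turn (range 0.52 to 0.81, adjusted p 0.041 to 0.19). Under LPS, dexamethasone lowered Trib3 at 24 h with a difference of -1.68 ± 0.34 (adjusted p = 0.0001), while at 4 h the difference was -0.50 ± 0.26 (adjusted p = 0.11; 0.039 without LPS plus dexamethasone replicate 3). The change between the times, -1.18 ± 0.43 (adjusted p = 0.029), was lost without any 1 of 6 libraries: LPS at 4 h replicate 1, LPS at 24 h replicate 1, and LPS plus dexamethasone replicates 1 and 3 at either time (adjusted p up to 0.1).

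Asns encodes asparagine synthetase, a direct target of ATF4 (chromosome 6, 7675169 to 7693254, minus strand), whose promoter holds the element letters shown above. At 4 h, Asns was at 69.2, 59.7 and 65.9 CPM untreated and at 12.5, 14.1 and 13.9 CPM with dexamethasone. LPS gave 104, 118 and 111 CPM and LPS plus dexamethasone 61.6, 47.1 and 68.7 CPM. LPS libraries were highest, and those with both agents overlapped with untreated ones. At 24 h, Asns was at 10.2, 6.57 and 9.31 CPM untreated and at 5.56, 5.31 and 5.08 CPM with dexamethasone. LPS gave 11.4, 11.3 and 13.1 CPM and LPS plus dexamethasone 3.72, 4.55 and 4.73 CPM. Its mean thus spanned 25.6-fold, from 111 ± 6.74 CPM with LPS at 4 h to 4.33 ± 0.539 CPM with LPS plus dexamethasone at 24 h. Dexamethasone lowered Asns in each of its 4 comparisons, with differences of -2.26 ± 0.12 alone at 4 h (adjusted p = 7.3e-16), -0.70 ± 0.16 alone at 24 h (adjusted p = 0.00042), -0.91 ± 0.10 under LPS at 4 h (adjusted p = 1.8e-08) and -1.46 ± 0.16 under LPS at 24 h (adjusted p = 1.3e-08). The change between the times under LPS was -0.55 ± 0.20 (adjusted p = 0.025). It was lost without LPS at 24 h replicate 3, LPS plus dexamethasone at 4 h replicate 1 or 3, or at 24 h replicate 1 (adjusted p up to 0.096). LPS raised Asns by 0.77 ± 0.10 at 4 h (adjusted p = 9.3e-08), a difference of 0.0 with scaling by library size alone. At 24 h the LPS rise was 0.47 ± 0.14 (adjusted p = 0.0053), and 0.29 (adjusted p = 0.063) without untreated replicate 2.

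Chac1 encodes a glutathione-degrading enzyme downstream of ATF4 (chromosome 2, 119181710 to 119184862, plus strand) and had the lowest single group mean per length of the 10 genes, 0.026 RPKM with dexamethasone at 24 h. At 4 h it had 80, 51 and 62 counts in untreated libraries and 0, 3 and 9 with dexamethasone. LPS libraries had 39, 69 and 68 counts and LPS plus dexamethasone 110, 70 and 102. At 24 h the counts were 16, 7 and 8 untreated, 2, 1 and 0 with dexamethasone, 8, 8 and 17 with LPS and 5, 1 and 5 with both. Dexamethasone without LPS nearly emptied the gene's counts at both times, and at 4 h LPS plus dexamethasone had the highest mean, 5.20 ± 0.834 CPM. The ratio of untreated to dexamethasone levels at 4 h was 14.7, with a 95% interval of 8.2 to 28.9, and the fitted difference was -3.84 ± 0.49 (adjusted p = 3.8e-08). At 24 h the ratio was 10.4, with an interval of 3.24 to 53.1 (both cover counting error only; edgeR adjusted p = 0.0015). Under LPS the dexamethasone difference was 0.62 ± 0.32 at 4 h (adjusted p = 0.11; 0.029 with scaling by library size alone). At 24 h it was -1.47 ± 0.64 (adjusted p = 0.061) and passed the threshold without the filter on low counts (0.045), by DESeq2 (0.027) and without LPS replicate 1 (0.046). The change between the times was -2.09 ± 0.72 (adjusted p = 0.018), and the call was lost without LPS at 24 h replicate 3 (-1.63, adjusted p = 0.11) or LPS plus dexamethasone at 24 h replicate 2. LPS differences were 0.40 ± 0.33 at 4 h (adjusted p = 0.28) and 0.28 ± 0.52 at 24 h (adjusted p = 0.68).

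Hspa5 encodes BiP, the main ER chaperone, which also holds the ER stress sensors inactive (chromosome 2, 34661982 to 34667559, plus strand). At 4 h, Hspa5 was at 610, 585 and 560 CPM untreated and at 680, 718 and 744 CPM with dexamethasone. LPS gave 1730, 1770 and 1670 CPM and LPS plus dexamethasone 1650, 1720 and 1620 CPM. Both LPS groups overlapped and lay far above the others. At 24 h, Hspa5 was at 837, 831 and 800 CPM untreated and at 820, 786 and 771 CPM with dexamethasone. LPS gave 993, 1070 and 1000 CPM and LPS plus dexamethasone 1270, 1340 and 1320 CPM, the highest libraries of that time. LPS raised Hspa5 by 1.56 ± 0.05 at 4 h (adjusted p = 4.4e-26) and by 0.31 ± 0.05 at 24 h (adjusted p = 6.4e-07), and the LPS effect was smaller at 24 h, with a change of -1.25 ± 0.07 (adjusted p = 3.2e-18). Dexamethasone alone raised it by 0.29 ± 0.05 at 4 h (adjusted p = 5.6e-06), with -0.06 ± 0.05 at 24 h (adjusted p = 0.36). Under LPS the dexamethasone difference was -0.05 ± 0.05 at 4 h (adjusted p = 0.4; 0.17 and called with scaling by library size alone) and 0.36 ± 0.05 at 24 h (adjusted p = 6.9e-08). The change between the times was 0.41 ± 0.07 (adjusted p = 5.5e-06).

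Xbp1 encodes the factor whose mRNA is spliced by IRE1 (chromosome 11, 5470659 to 5475893, plus strand). At 4 h, Xbp1 was at 128, 117 and 119 CPM untreated and at 195, 198 and 188 CPM with dexamethasone. LPS gave 227, 236 and 233 CPM and LPS plus dexamethasone 172, 167 and 166 CPM, so that the 4 groups did not overlap and the combined treatment lay below either agent alone. At 24 h, Xbp1 was at 164, 167 and 159 CPM untreated and at 227, 214 and 224 CPM with dexamethasone. LPS gave 260, 260 and 276 CPM and LPS plus dexamethasone 276, 263 and 271 CPM, which overlapped. LPS raised Xbp1 by 0.94 ± 0.05 at 4 h (adjusted p = 1.5e-19) and by 0.70 ± 0.05 at 24 h (adjusted p = 1.1e-15). Dexamethasone alone raised it by 0.67 ± 0.05 at 4 h (adjusted p = 1.3e-14) and by 0.44 ± 0.05 at 24 h (adjusted p = 4.8e-10). Under LPS it lowered Xbp1 at 4 h with a difference of -0.46 ± 0.05 (adjusted p = 1.8e-10), and at 24 h the difference was 0.02 ± 0.05 (adjusted p = 0.73). Across the times the change was 0.49 ± 0.07 (adjusted p = 1.8e-07). The dexamethasone effect with LPS minus that without LPS was -1.14 ± 0.07 at 4 h (adjusted p = 2.7e-16) and -0.42 ± 0.07 at 24 h (adjusted p = 2.6e-06).

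Dnajb9 encodes ERdj4, a BiP co-chaperone that XBP1 induces and that restrains IRE1 (chromosome 12, 44252342 to 44257109, minus strand). At 4 h, Dnajb9 was at 28.3, 26.9 and 29.4 CPM untreated and at 31.2, 31.0 and 31.7 CPM with dexamethasone. LPS gave 15.1, 12.3 and 14.6 CPM and LPS plus dexamethasone 19.7, 16.6 and 15.9 CPM. LPS libraries were lowest at this time, whereas Hspa5 and Xbp1 were higher with LPS. At 24 h, Dnajb9 was at 43.9, 44.3 and 40.3 CPM untreated and at 65.3, 63.5 and 59.1 CPM with dexamethasone. LPS gave 48.5, 55.2 and 60.6 CPM and LPS plus dexamethasone 84.5, 92.7 and 96.6 CPM, the highest libraries of the series. LPS lowered Dnajb9 with a difference of -1.01 ± 0.09 at 4 h (adjusted p = 2.2e-12) and raised it by 0.35 ± 0.08 at 24 h (adjusted p = 0.00015), the latter not called with scaling by library size alone (0.15, adjusted p = 0.093). Dexamethasone alone gave 0.15 ± 0.08 at 4 h (adjusted p = 0.15) and raised it by 0.55 ± 0.08 at 24 h (adjusted p = 1.7e-07). Under LPS it raised Dnajb9 by 0.74 ± 0.08 at 24 h (adjusted p = 2.2e-10). At 4 h the rise was 0.32 ± 0.10 (adjusted p = 0.0071), a call lost without LPS replicate 2 (0.068) or LPS plus dexamethasone replicate 1 (0.094). From 4 h to 24 h this effect moved by 0.42 ± 0.12 (adjusted p = 0.0066; 0.15 with scaling by library size alone).

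Herpud1 encodes HERP, a membrane component of the ER-associated degradation complex (chromosome 8, 95113066 to 95122005, plus strand). At 4 h, Herpud1 was at 23.5, 23.4 and 23 CPM untreated and at 32.1, 36.6 and 33.9 CPM with dexamethasone. LPS gave 83.8, 78.0 and 79.4 CPM and LPS plus dexamethasone 151, 151 and 136 CPM. The groups rose in that order without overlap. At 24 h, Herpud1 was at 53.4, 54.7 and 50.2 CPM untreated and at 87.2, 82.4 and 82.7 CPM with dexamethasone. LPS gave 38.1, 38.1 and 43.8 CPM and LPS plus dexamethasone 116, 132 and 135 CPM, so that LPS libraries were lowest and those with both agents highest. LPS raised Herpud1 by 1.79 ± 0.07 at 4 h (adjusted p = 4.4e-23) and lowered it with a difference of -0.40 ± 0.07 at 24 h (adjusted p = 3.1e-06), a change of -2.19 ± 0.10 between the times (adjusted p = 8.3e-21). Dexamethasone raised Herpud1 in each of its 4 comparisons: by 0.55 ± 0.07 alone at 4 h (adjusted p = 4.8e-08), by 0.67 ± 0.06 alone at 24 h (adjusted p = 3.8e-11), by 0.86 ± 0.06 under LPS at 4 h (adjusted p = 5.4e-14) and by 1.67 ± 0.07 under LPS at 24 h (adjusted p = 9.9e-22). Under LPS, the dexamethasone effect at 24 h minus that at 4 h was 0.82 ± 0.09 (adjusted p = 3e-09), and for dexamethasone alone 0.12 ± 0.10 (adjusted p = 0.39).

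Atf6 encodes the sensor that is cut in the Golgi to release a transcription factor (chromosome 1, 170532243 to 170695340, minus strand). At 4 h, Atf6 was at 253, 249 and 251 CPM untreated and at 249, 243 and 246 CPM with dexamethasone. LPS gave 172, 183 and 184 CPM and LPS plus dexamethasone 174, 199 and 181 CPM. The 2 groups without LPS lay above the 2 with LPS. At 24 h, Atf6 was at 181, 175 and 164 CPM untreated and at 157, 164 and 161 CPM with dexamethasone. LPS gave 102, 104 and 103 CPM and LPS plus dexamethasone 226, 219 and 213 CPM, which made the combined treatment the highest of that time and LPS the lowest. LPS lowered Atf6 with differences of -0.48 ± 0.05 at 4 h (adjusted p = 5.7e-11) and -0.75 ± 0.05 at 24 h (adjusted p = 1.5e-15). Dexamethasone alone gave -0.03 ± 0.05 at 4 h (adjusted p = 0.66) and -0.11 ± 0.05 at 24 h (adjusted p = 0.077; 0.028 without untreated replicate 3). Under LPS the dexamethasone difference was 0.04 ± 0.05 at 4 h (adjusted p = 0.57; 0.26 and called with scaling by library size alone) and 1.09 ± 0.05 at 24 h (adjusted p = 1.1e-19). The 24 h effect minus the 4 h effect was 1.05 ± 0.07 (adjusted p = 1.3e-14).

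**Figure D3:**
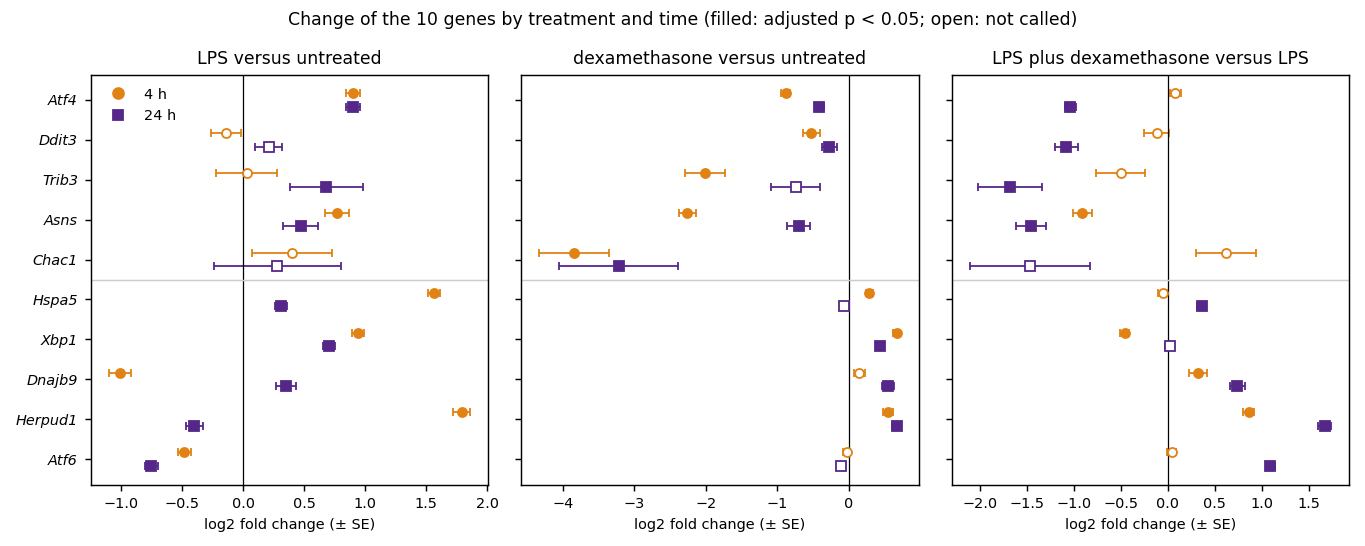
Log2 fold change (horizontal axis, ± standard error) of each gene for LPS, dexamethasone alone and dexamethasone under LPS at 4 h (circles) and 24 h (squares); filled symbols passed an adjusted p of 0.05. Dexamethasone alone places the 5 genes of the ATF4 branch left of 0 at both times, while Herpud1 lies right of 0 in all dexamethasone comparisons.

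Counted over the 10 genes, LPS at 4 h raised 5 (Atf4, Asns, Hspa5, Xbp1 and Herpud1) and lowered 2 (Dnajb9 and Atf6), where 72.9% of all genes were called, 34.2% higher and 38.8% lower. The median of the 10 was 0.59, beside -0.07 over all genes; with scaling by library size alone 4 rose and 4 fell and the median was -0.18. LPS at 24 h raised 6 and lowered 2 (Herpud1 and Atf6), with 60.4% of all genes called (29.7% higher, 30.6% lower) and a median of 0.33 beside -0.02; by library size alone 3 rose. Dexamethasone alone at 4 h raised 3 (Hspa5, Xbp1 and Herpud1) and lowered 5 (Atf4, Ddit3, Trib3, Asns and Chac1), with 41.4% of all genes called (17.6% higher, 23.7% lower). At 24 h it raised 3 (Xbp1, Dnajb9 and Herpud1) and lowered 4 (Atf4, Ddit3, Asns and Chac1), with 48.4% of all genes called (21.9% higher, 26.5% lower). Under LPS, dexamethasone at 4 h raised 2 and lowered 2, beside 49.3% of all genes called (23.9% higher, 25.4% lower); by library size alone 6 rose. At 24 h it raised 4 and lowered 4, with 43.7% of all genes called (21% higher, 22.6% lower). Since several comparisons share the untreated or LPS libraries, their counts are not independent.

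Untreated cells differed between the times in each of the 10 genes. Between untreated cells at 24 h and at 4 h, 5 were higher and 5 lower, where 60.9% of all genes were called (30.6% higher, 30.4% lower). Asns fell by 2.91 on the log2 scale (SE 0.12, adjusted p = 5.3e-18), Chac1 by 2.51 (SE 0.42, adjusted p = 2.6e-06), Trib3 by 1.68 (SE 0.27, adjusted p = 1.9e-06), Atf6 by 0.53 and Atf4 by 0.48. Herpud1 rose by 1.18 ± 0.07 (adjusted p = 7.4e-17), Ddit3 by 0.87 ± 0.11 (adjusted p = 2.8e-08), Dnajb9 by 0.60, Hspa5 by 0.49 and Xbp1 by 0.43. Comparisons within a time do not contain this difference. The LPS effect itself differed between the times for 5 of the 10 genes, with 61.3% of all genes called (30.8% higher, 30.5% lower). It was lower at 24 h for Hspa5, Xbp1, Herpud1 and Atf6 and higher for Dnajb9 (1.37 ± 0.12, adjusted p = 2.1e-12), although for Xbp1 and Atf6 the sign turned with scaling by library size alone (0.33 and 0.30 in place of -0.24 and -0.27). The effect of dexamethasone alone differed for 6 of the 10, with 30.7% of all genes called (13.8% higher, 16.8% lower). It was less negative at 24 h for Atf4 (0.47 ± 0.09), Trib3 (1.28 ± 0.45) and Asns (1.57 ± 0.20). The Trib3 value, with an adjusted p of 0.027, was not called without untreated at 4 h replicate 1, untreated at 24 h replicate 2 or dexamethasone at 24 h replicate 3 (adjusted p up to 0.21).

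Whether LPS changed the response to dexamethasone was tested at each time as the dexamethasone effect with LPS minus that without. At 4 h, 5 of the 10 genes were called higher and 2 lower, with 38.7% of all genes called (20.8% higher, 17.9% lower). The dexamethasone effect was higher with LPS than without for Atf4 (0.96 ± 0.08, adjusted p = 1e-11), Trib3 (1.52 ± 0.39, adjusted p = 0.0018), Asns (1.36 ± 0.15, adjusted p = 3.3e-08) and Chac1 (4.46 ± 0.60, adjusted p = 1.4e-07, on the low counts given above). With LPS it stayed negative for Trib3 (-0.5, not called) and Asns (-0.91). For Atf4 (0.08) and Chac1 (0.62) it was above 0 and not called. Herpud1 was also called higher (0.30 ± 0.10), and Xbp1 and Hspa5 lower; with scaling by library size alone Hspa5 lost its call (-0.10, adjusted p = 0.18) and 8 genes were called higher. At 24 h, 3 genes were called higher and 4 lower, with 38.2% of all genes called (20.5% higher, 17.7% lower). Atf4 (-0.63 ± 0.09, adjusted p = 1.8e-07), Ddit3 (-0.80 ± 0.16, adjusted p = 9.1e-05) and Asns (-0.76 ± 0.23, adjusted p = 0.0088) were lower than the sum of the separate effects. Atf6 (1.20 ± 0.07, adjusted p = 2.2e-16), Herpud1 (1.00 ± 0.09, adjusted p = 2.3e-11) and Hspa5 (0.42 ± 0.07, adjusted p = 4.2e-06) were higher. The difference between the interactions of the 2 times was not tested.

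Across the 8 group means, Atf4, Trib3, Asns and Chac1 followed each other. Pearson's r of log2 levels was 0.95 between Trib3 and Asns, 0.92 between Asns and Chac1 and 0.89 between Atf4 and Chac1. Ddit3 did not follow them (r = -0.1 with Atf4 and -0.46 with Asns), and Dnajb9 ran opposite to Asns (r = -0.93). Hspa5 and Herpud1 had r = 0.8. These values describe 8 points that share their libraries and the step from 4 h to 24 h. Among the other tested genes, the profile most like that of Atf4 was Ifrd1 (r = 0.982), of Asns Nup153 (0.987), of Trib3 Cars, a tRNA synthetase (0.967), and of Chac1 Slc25a25 (0.973). The closest to Hspa5 was Mfsd6l (0.989), to Xbp1 Os9, a lectin of ER-associated degradation (0.94), to Dnajb9 Rap1gap (0.993), to Herpud1 Arfgap1 (0.984), to Atf6 Mbnl3 (0.956) and to Ddit3 Rabgap1l (0.954).

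The upstream machinery was read from 16 genes for sensors, the proteases that cut ATF6, eIF2 kinases, eIF2B subunits and eIF2 phosphatase subunits, all tested. LPS at 4 h raised 8 and lowered 6 of them (median 0.15; 3 and 13 with scaling by library size alone). Eif2ak2, the kinase PKR, rose from 67.5 ± 2.57 to 737 ± 14.2 CPM (log2 3.45 ± 0.07, adjusted p = 4.2e-32). Eif2ak3, the sensor kinase PERK, fell from 38.7 ± 1.28 to 7.03 ± 0.785 CPM (log2 -2.46 ± 0.08, adjusted p = 6.6e-25). Ern1, the sensor IRE1, fell by 0.89 on the log2 scale (adjusted p = 4.6e-14), and Atf6 was lower as given above, while Atf6b, the paralogue of Atf6, rose from 92.2 ± 5.8 to 138 ± 9.28 CPM (log2 0.58 ± 0.06, adjusted p = 1.7e-11), a rise that is smaller than the shift of -0.77 from library-size scaling in this comparison. Dexamethasone under LPS raised Eif2ak3 by 1.29 ± 0.09 at 4 h and by 0.75 ± 0.07 at 24 h and Ern1 by 0.67 ± 0.07 at 4 h, with 0.14 ± 0.06 at 24 h (adjusted p = 0.059). At 4 h, dexamethasone under LPS raised 8 and lowered 2 over the list (median 0.14), where scaling by library size alone shifted values by 0.22. At 24 h it raised 2 and lowered 6 (median -0.07). The counts of this list and the lists below stand beside the share of all genes called. That share was 72.9% for LPS at 4 h and 60.4% at 24 h. For dexamethasone alone it was 41.4% and 48.4%, and for dexamethasone under LPS 49.3% and 43.7%. Between the times it was 30.7% for dexamethasone alone and 38.8% under LPS. Ppp1r15a, the inducible eIF2 phosphatase subunit GADD34, rose by 2.60 ± 0.09 with LPS at 4 h and by 0.95 ± 0.08 at 24 h.

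Of 30 other ATF4 target genes, 26 were tested. LPS at 4 h raised 16 and lowered 4 (median 0.74; 10 and 9 with scaling by library size alone, median -0.03). Slc7a11, the cystine transporter, rose from 4.21 ± 0.803 to 338 ± 15.8 CPM and, with dexamethasone added, stood at 996 ± 37.2 CPM (log2 1.56 ± 0.16 against LPS, adjusted p = 2.8e-07). Dexamethasone alone at 4 h raised 7 and lowered 17 (median -0.95). Atf3, a stress-induced repressor, fell from 205 ± 14.4 to 43.1 ± 2.71 CPM, and Psat1, an enzyme of serine synthesis, by 1.24 on the log2 scale (adjusted p = 5.3e-12). Ddit4, an inhibitor of mTORC1 that glucocorticoids are also known to induce, rose from 1.09 ± 0.193 to 394 ± 17.1 CPM. Under LPS, dexamethasone raised 8 and lowered 14 at 4 h (median -0.39) and raised 6 and lowered 14 at 24 h (median -0.53). Atf3 was lower in both, at -2.47 ± 0.07 and -3.22 ± 0.08. Atf5 moved from 0.40 ± 0.08 at 4 h to -1.60 ± 0.09 at 24 h and Sesn2 from 0.38 ± 0.10 to -0.83 ± 0.10, all called, as did Slc7a11 from 1.56 to -0.88 ± 0.18. Across the times the change was called higher for 8 and lower for 9 of the 26 genes, with a median of 0.0.

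The aminoacyl-tRNA synthetases, which ATF4 is known to induce, were read with the tRNA exporter Xpot as 13 genes, all tested. Dexamethasone alone at 4 h lowered 11 and raised 0 (median -0.67), with Cars falling from 70.9 ± 1.68 to 29.4 ± 1.27 CPM (log2 -1.27 ± 0.08, adjusted p = 2.4e-16). After 24 h it raised 2 and lowered 3 (median -0.04), and its effect was higher at 24 h than at 4 h for 11 of the 13. Under LPS, dexamethasone lowered 11 and raised 0 at 4 h (median -0.32), which with scaling by library size alone became 6 lowered and 2 raised. Wars, which interferons also induce, fell from 186 ± 2.37 to 95.5 ± 4.16 CPM in that comparison. By 24 h it lowered 7 and raised 1 (median -0.15). Between the times the dexamethasone effect under LPS was called higher for 3 and lower for 0 of the 13 (median 0.12; 2 and 4 by library size alone), whereas it was lower at 24 h for Atf4 and Asns. LPS at 24 h raised 11 and lowered 0 (median 0.38), with Aars going from 69.3 ± 3.75 to 136 ± 2.39 CPM, and by library size alone raised 7 and lowered 1. Untreated cells at 24 h had lower levels of all 13 than at 4 h (median -1.04).

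The 20 other ER chaperones and folding enzymes did not move as a group with LPS at 4 h, when it raised 7 and lowered 6 (median -0.02; 1 and 19 with scaling by library size alone). Hsp90b1, the ER form of HSP90, was at 0.07 ± 0.05 (adjusted p = 0.22), and Pdia4, a disulfide isomerase, fell by 0.83 on the log2 scale (adjusted p = 1.2e-15), beside 1.56 for Hspa5. At 24 h LPS raised 18 and lowered 1 (median 0.51; 15 and 2 by library size alone), led by the oxidase Ero1l, from 28.9 ± 2.4 to 169 ± 4.54 CPM. Under LPS, dexamethasone raised 12 and lowered 1 at 4 h (median 0.15) and raised 9 and lowered 1 at 24 h (median 0.11). Dnajc3, a BiP co-chaperone, rose at both times, by 0.56 ± 0.05 and 0.47 ± 0.05, and Sdf2l1 by 0.66 ± 0.07 at 24 h. Ero1l was the gene lowered at 24 h, from 169 ± 4.54 to 51.5 ± 2.26 CPM (log2 -1.71 ± 0.06, adjusted p = 1.6e-22). Between the times the dexamethasone effect under LPS was called higher for 4 and lower for 2 of the 20, but for 1 and 10 with scaling by library size alone.

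Of 17 genes of ER-associated degradation other than Herpud1, dexamethasone under LPS raised 4 and lowered 3 at 4 h (median -0.02; 11 and 0 with scaling by library size alone) and raised 7 and lowered 2 at 24 h (median 0.09). These calls stand beside 49.3% of all genes called at 4 h and 43.7% at 24 h. Ube2g2, a ubiquitin-conjugating enzyme of the pathway, rose from 79.5 ± 0.767 to 127 ± 8.92 CPM at 24 h (log2 0.68 ± 0.06, adjusted p = 1.8e-11), beside 1.67 for Herpud1. LPS raised 11 and lowered 5 at 4 h, led by the ubiquitin ligase Syvn1 (1.02 ± 0.07, adjusted p = 4e-16), but 1 and 15 by library size alone. Among 28 genes of translocation into the ER and early secretion, 27 were tested. Dexamethasone under LPS at 4 h raised 1 and lowered 13 (median -0.14), a direction that turned with scaling by library size alone (9 and 1). After 24 h it raised 20 and lowered 0 (median 0.23), and 22 and 0 by library size alone. The effect was higher at 24 h than at 4 h for 20 of the 27 and lower for 1 (11 and 1 by library size alone). Ssr1, a subunit of the translocon-associated complex, rose from 164 ± 3.53 to 232 ± 8.19 CPM at 24 h (log2 0.49 ± 0.05, adjusted p = 2.7e-10). LPS at 24 h raised 22 and lowered 0 (median 0.45).

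**Figure D4:**
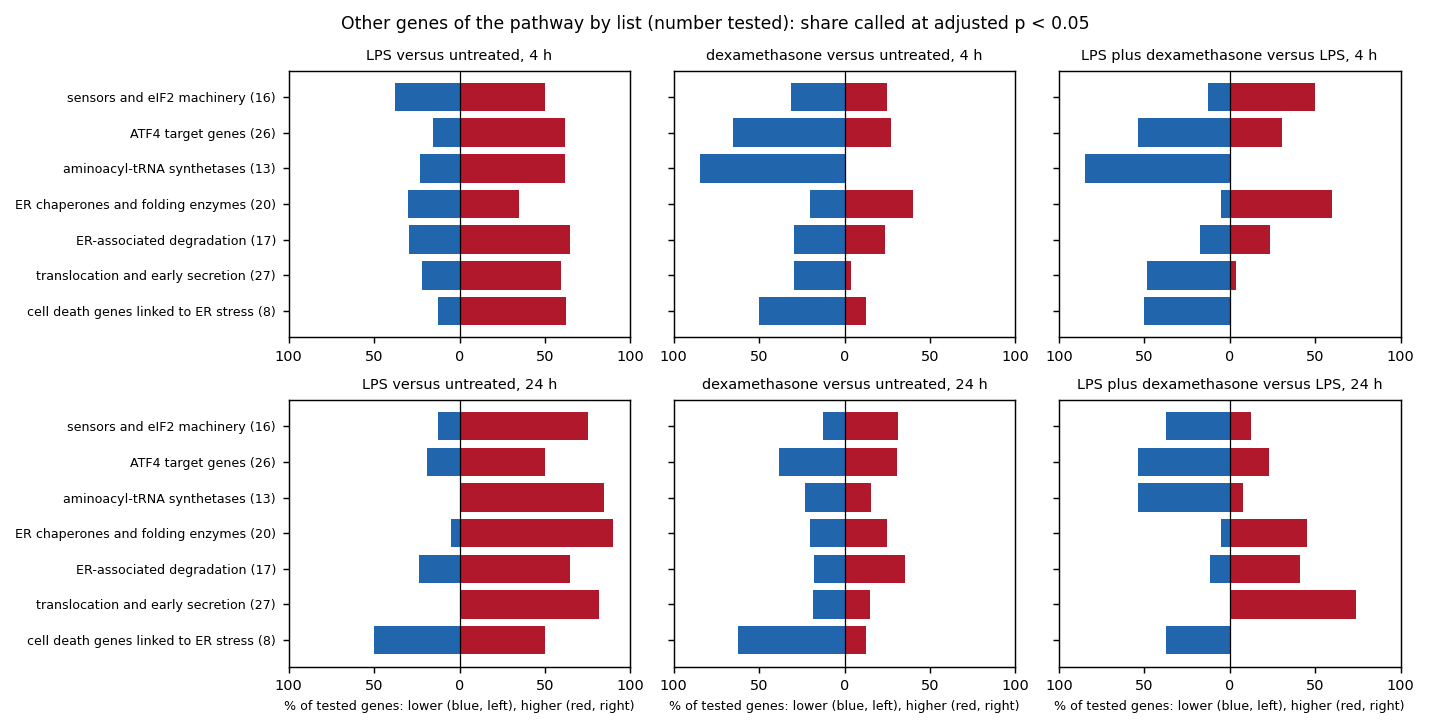
Share of the tested genes of 7 lists called higher (red, right) or lower (blue, left) in 6 comparisons, in percent of the genes tested. The tRNA synthetases lie to the left with dexamethasone at 4 h, and translocation genes to the right with dexamethasone under LPS at 24 h.

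Marker sums of several other cell types differed between groups, and not only with LPS. At 24 h the 9 lymphocyte markers summed to 24.7 to 27.2 CPM untreated and 5.68 to 7.35 CPM with LPS. Only 1 of these 9 passed the filter on low counts, and it was called lower (log2 -2.15). The 5 mast cell and basophil markers, of which 3 passed the filter, summed to 10.4 to 11.6 and 0.229 to 1.39 CPM in the same groups. With dexamethasone alone at 4 h the dendritic sum was 16.2 to 17.1 CPM. That sum lay above the untreated one although 1 of the 6 markers was called higher and 3 lower (median -1.6). A sum can thus move against most called genes of its list. The fibroblast and endothelial sum of that group was 1.83 to 2.68 CPM, against at least 14.4 CPM untreated. The summed level of 9 neutrophil markers was 96.2 to 132 CPM with LPS and 65.7 to 100 CPM with LPS plus dexamethasone at 4 h, against 34.5 to 50.7 CPM untreated. The 7 fibroblast and endothelial markers, of which 4 passed the filter, summed to 102 to 143 CPM with LPS at 4 h and 22.1 to 28.3 CPM with both agents. At 24 h the neutrophil sum was 8.95 to 10.7 CPM with LPS and 17.3 to 23.3 CPM with both. Of the 8 neutrophil markers tested, 1 was called higher and 2 lower in that comparison. The fibroblast and endothelial sum at 24 h was 26 to 28.3 CPM with LPS and 3.19 to 4.05 CPM with both. The 6 dendritic cell markers summed to 29.8 to 42.4 CPM with LPS at 4 h against 4.51 to 6.46 CPM untreated and 12.2 to 16.4 CPM with both agents. At 24 h the dendritic sum was 3.35 to 5.68 CPM with LPS and 0.673 to 1.1 CPM with both. Ly6g was at 0 in the untreated, dexamethasone and LPS plus dexamethasone libraries of 4 h, and Ltf in those of LPS plus dexamethasone at 24 h. Their part in the results was not tested. Macrophage markers summed to 22400 to 24500 CPM with LPS and 21100 to 21800 CPM with both agents at 4 h, and to 48400 to 52300 and 42000 to 43000 CPM at 24 h.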

How the data were processed

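The deposited table holds whole-number counts per gene for 24 libraries, made by the authors with featureCounts 2.0.0 on read pairs, unstranded, over the exons of GENCODE M29, per the file header; exon length per gene is another deposited column. The header sets no option to count reads that match several places or genes, so these were left out. The submitters' processing notes name STAR (no version) and GRCm38 or mm10, whereas GENCODE M29 annotates GRCm39, so the build of the alignment is uncertain. Symbols came from GENCODE M21 by identifier (52081 of 55357).

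The counts were fitted in edgeR 4.0.16 (R 4.3.3): TMM scaling, filterByExpr, 1 mean per group, 16 residual degrees of freedom, biological coefficient of variation 6.29%, two-sided quasi-likelihood F tests for 12 comparisons. Standard errors were taken as |log2 fold change| divided by the root of the F statistic. The code was tested on simulated data. Profiles were compared as log2(CPM + 0.1). Named genes are the 10 genes, the largest called rise and fall of each list among genes of at least 5 CPM, and examples chosen for their role after values were seen. The genes and lists were chosen with earlier results of these data known. Replicates differed beyond counting noise (chi-square per gene 3.05 to 8.33). Same-numbered libraries did not deviate together (median correlation -0.029 at 4 h and 0.027 at 24 h), so replicate number was not a term. Alternatives were other scalings and filters, DESeq2 1.42.0, a replicate block, the compared groups alone, and each library left out.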

Additional observations from a re-analysis of the deposited data

Results flagged for a closer look

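The treatment effect differed between 4 h and 24 h, by the test of the difference itself (edgeR, adjusted over all genes), in 21 cases among the 10 genes. These are 5 of the 10 for LPS, where 61.3% of all genes were called, 6 for dexamethasone alone (30.7%) and 10 for dexamethasone under LPS (38.8%). For LPS, the change from 4 h to 24 h in the log2 effect was -1.25 for Hspa5, -0.24 for Xbp1, 1.37 for Dnajb9, -2.19 for Herpud1 and -0.27 for Atf6. For dexamethasone alone it was 0.47 for Atf4, 1.28 for Trib3, 1.57 for Asns, -0.34 for Hspa5, -0.24 for Xbp1 and 0.40 for Dnajb9. For dexamethasone under LPS it was -1.12 for Atf4, -0.95 for Ddit3, -1.18 for Trib3, -0.55 for Asns and -2.09 for Chac1. In the same comparison it was 0.41 for Hspa5, 0.49 for Xbp1, 0.42 for Dnajb9, 0.82 for Herpud1 and 1.05 for Atf6.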

How the results depend on the processing

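Library-size scaling changed most. It gave 4 of the 10 genes lower with LPS at 4 h, 3 higher with LPS at 24 h, 6 higher with dexamethasone under LPS at 4 h, 6 higher and 2 lower for the LPS effect between the times, and 8 higher and 1 lower for the interaction at 4 h. Over all genes the calls became 2434 higher and 9779 lower in place of 5118 and 5812 for LPS at 4 h, 3079 and 6279 in place of 4455 and 4591 for LPS at 24 h, and 5974 and 2365 in place of 3581 and 3807 for dexamethasone under LPS at 4 h. They became 7692 and 2573 in place of 4617 and 4568 for the LPS effect between the times, 1937 and 4808 in place of 2846 and 2962 for dexamethasone under LPS between the times, and 5279 and 1566 in place of 3122 and 2675 for the interaction at 4 h. Signs turned for Trib3 (-0.74) and Chac1 (-0.37) with LPS at 4 h, for Ddit3 (0.10), Hspa5 (0.17) and Edem2 (0.03) with dexamethasone under LPS at 4 h, and for Asns (0.27), Chac1 (0.44), Xbp1 (0.33) and Atf6 (0.30) in the LPS effect between the times. Other turned signs were of values near 0: Trib3 with LPS at 4 h without the filter (-0.01), Atf6 with dexamethasone at 4 h from the compared groups alone (0.01), and Atf4 in the LPS effect between the times with DESeq2 size factors (-0.05), DESeq2 (-0.05) and a 1 CPM filter (-0.01). The compared groups alone gave 2 genes higher for the LPS effect between the times. The cause of these differences was not tested.

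With single libraries left out, 3 counts moved over 1.5 times. They ran from 1 to 2 higher for dexamethasone under LPS at 4 h and 3 to 5 lower for it between the times. For the LPS effect between the times, 1 to 2 were higher (2 without untreated at 4 h replicate 2 or LPS at 4 h replicate 1). Smaller moves include 4 to 6 higher for LPS at 24 h and 3 to 5 lower for dexamethasone alone at 24 h. Under LPS, dexamethasone lowered 2 to 3 at 4 h and 4 to 5 at 24 h. Values whose sign turned ran from -0.17 to 0.22 for Trib3 with LPS at 4 h, -0.19 to 0.77 for Chac1 with LPS at 24 h and -0.02 to 0.08 for Atf6 with dexamethasone under LPS at 4 h. In the LPS effect between the times they ran from -0.05 to 0.06 for Atf4 and -0.58 to 0.38 for Chac1, and in that of dexamethasone alone from -0.20 to 1.93 for Chac1. A replicate block, with no sign that numbers pair the samples, changed none of the 24 counts beyond 1.5 times. It ended the calls of Trib3 for LPS at 24 h (0.68, adjusted p = 0.062) and for dexamethasone under LPS between the times (-1.14, adjusted p = 0.05). Depth limits Chac1 and Trib3, with at most 110 and 196 counts in a library.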

Other observations

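Cell death genes that are often linked to lasting ER stress were read from a list of 8, all tested. LPS at 4 h raised 5 and lowered 1 (median 0.73; 3 and 3 with scaling by library size alone), and dexamethasone under LPS at 4 h lowered 4 and raised 0 (median -0.25; 3 and 2 by library size alone). Bcl2l11, which encodes the pro-apoptotic protein BIM, rose from 95 ± 0.74 to 330 ± 29.4 CPM with LPS at 4 h and stood at 107 ± 8.53 CPM with dexamethasone added (log2 -1.63 ± 0.06, edgeR adjusted p = 2.5e-22). At 24 h it was lower with LPS (57.7 ± 3.3 CPM) than in untreated cells (126 ± 3.64 CPM), and the dexamethasone difference under LPS was -0.10 ± 0.07 (adjusted p = 0.21). Bax, an effector of mitochondrial permeabilisation, fell with dexamethasone under LPS at 24 h, from 141 ± 12.8 to 89.8 ± 4.25 CPM (log2 -0.65 ± 0.06, adjusted p = 7.7e-12). Bcl2, a survival gene of the same list, fell with LPS at 4 h from 15 ± 3.62 to 1.28 ± 0.249 CPM. At 24 h dexamethasone under LPS lowered 3 and raised 0 of the 8. Over all genes, 72.9% were called for LPS at 4 h. For dexamethasone under LPS the share was 49.3% at 4 h and 43.7% at 24 h. The totals called among the 8 genes lie near these shares. By direction, the shares over all genes were 34.2% higher and 38.8% lower for LPS at 4 h. For dexamethasone under LPS they were 23.9% higher and 25.4% lower at 4 h, and 21% higher and 22.6% lower at 24 h.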
